A study of Rattus norvegicus with 10 samples.

Results

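The serous secretory proteins of saliva are represented here by 9 genes, Amy1, Bpifa2, Bpifa2f, Dnase1, Dmbt1, Pip, Odam, Azgp1 and Agr2. They were chosen by name, and every probe whose RefSeq accession carries one of these symbols was taken. Each of the 9 has 1 probe on the array, that of Agr2 spotted 10 times, and all 9 are among the 14711 genes tested, of 15168 named genes with a probe. Gland mRNA of male rats aged 14 weeks was hybridised to one-colour Agilent arrays, 1 per rat, the tissue being the submandibular salivary gland. The groups were 5 rats of the inbred spontaneously hypertensive strain (SHR) and, as its normotensive control, 5 Wistar-Kyoto rats (WKY) matched for age and weight per the series' design text. No treatment or transgene is named for either strain, and the comparison asks which gland mRNAs differ with the hypertensive strain. Arrays are named by strain and the numbers in the sample title, such as SHR 3-3.

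Serous acinar cells of salivary glands store proteins in zymogen granules and release them into saliva on nervous stimulation. The proteins digest starch, degrade extracellular DNA, agglutinate bacteria or coat the tooth surface. Proteins bound for the granules fold in the endoplasmic reticulum, where disulfide isomerases act on them. In rodents amylase and parotid secretory protein are best known from the parotid gland, while several of the other genes are also expressed in the submandibular gland.

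Each array gave 42877 spots, 0 of them saturated and 94.8% to 97.7% of them well above background. Its 75th percentile of processed intensity ranged from 333 to 648 units. All levels below are log2 processed intensities minus this percentile of the same array, called scaled log2 signal, and probes of different genes are not set against each other. The acinar marker Aqp5, at 6713 to 15068 intensity units, and the granular duct marker Klk1 were bright in every array. SHR 3-3, the array with the lowest 75th percentile, had a log2 value of Egf, a granular duct marker, that differed by −4.31 from its strain mates, and the differences that turned or moved most without it are also given without it. The headers name scan times, and arrays scanned in 1 pass were taken as 1 slide. By this 4 of the 5 SHR arrays shared slide 1 and 2 of the WKY arrays slide 3, while slide 2 held SHR 2-1 together with WKY 1-5, 4-1 and 4-2. Strain and scan pass are therefore largely confounded. In whole glands, fewer cells of a type and less RNA per cell cannot be told apart.

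Of the 9 genes, Azgp1 differed between the strains and was lower in SHR, by 2.69-fold. Pip was 1.54-fold higher in SHR, with no overlap between the strains in scaled signal, but did not pass the test. With the authors' values, in which several arrays were tied for Pip, the strains overlapped. The other 7 had log2 differences (SHR minus WKY) of −0.42 to 0.09, and none of these passed limma's test. The median over the 9 genes was −0.17, and that over all genes tested was −0.02. At a limma adjusted p below 0.05, 0 of 9 genes were higher, where 1.51% of all genes were, and 1 of 9 was lower, where 2.85% were. Together that is 1 of 9, beside 4.36% of all genes. At an unadjusted p below 0.05 the count was 2 of 9, where 20.3% of all genes were counted. The share of lower genes among all calls was 65.4%, and it was 50.6% to 55.9% under other scalings and with the authors' values. In scaled signal the arrays of the strains did not overlap for 2 of the 9 genes, Azgp1 and Pip, where 7.25% of all genes did not overlap.

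**Figure D1:**
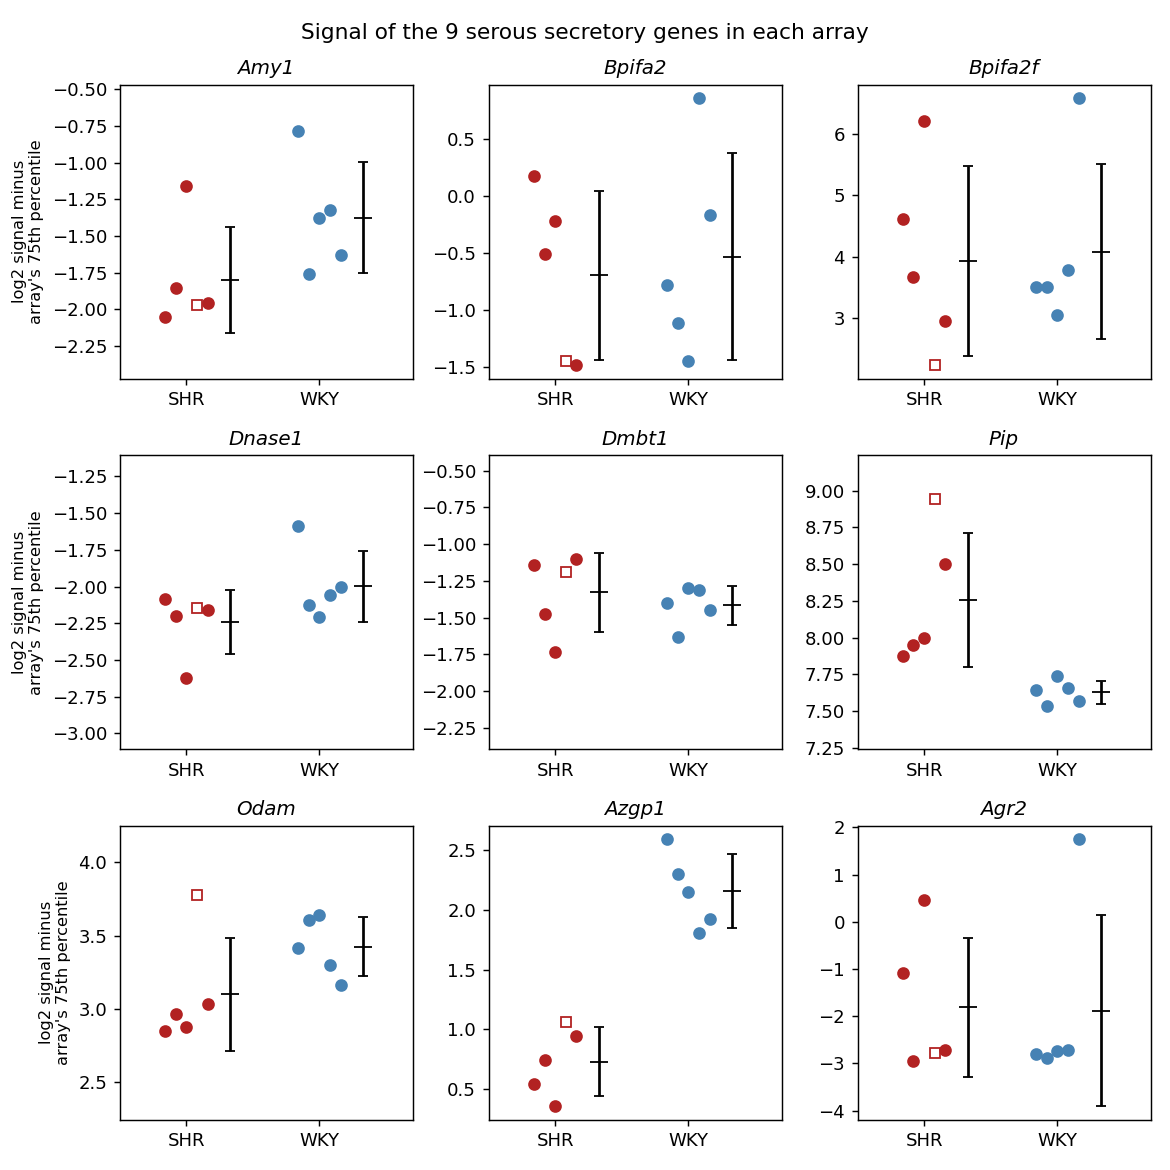
Scaled log2 signal (vertical axis, log2 units relative to the array's 75th percentile) of the 9 genes in 5 SHR arrays (left, red) and 5 WKY arrays (right, blue). Points are arrays, the open square is SHR 3-3 and the black bar is the mean with its SD. The panels span different ranges. Azgp1 and Pip show no overlap, and Agr2 and Bpifa2f have single arrays far above the rest.

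**Figure D2:**
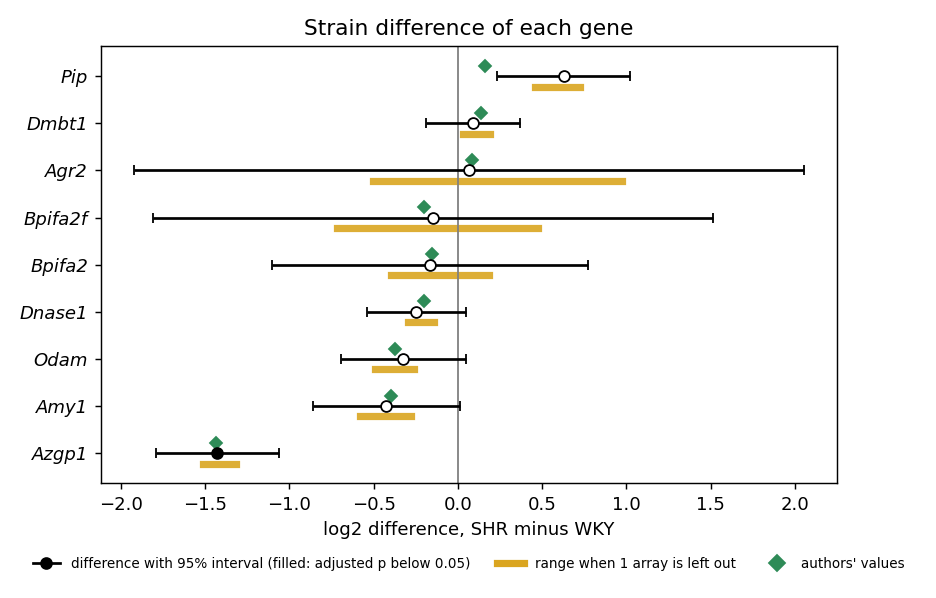
Log2 difference, SHR minus WKY (horizontal axis), for each gene with its 95% interval from limma over 5 arrays per strain. Filled points passed at an adjusted p below 0.05. The yellow bar spans the values with 1 array left out, and the green diamond is the value from the authors' table. Azgp1 stays between −1.51 and −1.32 when an array is left out, while Agr2 runs from −0.50 to 0.97.

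Azgp1 encodes zinc-alpha-2-glycoprotein, a secreted protein with the fold of a major histocompatibility complex class I heavy chain that is known for mobilising lipid in fat cells. Its scaled log2 signal was 0.54, 0.75, 0.36, 1.06 and 0.94 in SHR 2-1, 2-3, 3-1, 3-3 and 3-4, against 2.59, 2.30, 2.15, 1.81 and 1.92 in WKY 1-2, 1-3, 1-5, 4-1 and 4-2. Every SHR array was below every WKY array, and the gap between the highest SHR and the lowest WKY array exceeded the SD within either strain. The log2 difference was −1.43 ± 0.17 SE (95% interval −1.79 to −1.06, n = 5 per strain, limma adjusted p = 3.98e-04). By its absolute size it ranked at 56 of the 14711 genes. The intensities behind it were 695 to 1078 units in SHR and 2042 to 3026 units in WKY. Leaving out any 1 array kept the call, with a highest adjusted p of 0.00205. In the fit with a slide block the difference was almost the same, −1.42, but it then rests on SHR 2-1 alone and no longer passed (adjusted p = 0.0737). On slide 2 alone it was also −1.42 (adjusted p = 0.0495), but there 1 SHR array stands against 3 WKY arrays and is assumed to vary as they do. The nearest tested genes on either side, Cyp3a9 (−0.39, adjusted p = 0.162) and Zscan21 (0.09, 0.511), were not past the threshold.

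Markers of macrophages and lymphoid tissue had lower sums in SHR as well. The summed level of 4 of 4 macrophage markers, in multiples of the 75th percentile, was 3.27 to 5.67 in SHR and 6.59 to 8.38 in WKY, with 2 of the 4 lower past the threshold. That of 3 of 5 lymphoid markers was 0.388 to 0.522 in SHR and 0.608 to 0.746 in WKY, with 1 lower. Their part in the difference of Azgp1 was not tested. The promoter window of Azgp1, as the gene whose signal passed the test, is printed from RefSeq (assembly GRCr8, chr12:22044507-22044806, plus strand). It covers 250 bases before to 50 bases after the transcript start and comes from the reference rat, not from SHR or WKY, so it does not show strain variants. No part of it is capitalised because it holds no match to TATAA on either strand, a motif found in 26.2% of 33469 rat windows of this length.
Azgp1: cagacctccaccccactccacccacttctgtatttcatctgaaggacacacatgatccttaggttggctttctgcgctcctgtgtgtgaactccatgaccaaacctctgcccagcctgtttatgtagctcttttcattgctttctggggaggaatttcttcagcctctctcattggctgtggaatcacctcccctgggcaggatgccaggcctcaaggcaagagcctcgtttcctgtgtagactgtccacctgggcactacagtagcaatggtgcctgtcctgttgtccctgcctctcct

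Pip encodes prolactin-inducible protein, a secreted glycoprotein of saliva, tears and seminal fluid that binds bacteria. Its scaled log2 signal was 7.88, 7.95, 8.00, 8.95 and 8.50 in SHR 2-1, 2-3, 3-1, 3-3 and 3-4, against 7.64, 7.54, 7.74, 7.66 and 7.57 in WKY 1-2, 1-3, 1-5, 4-1 and 4-2. The 5 WKY arrays lay close together (SD 0.08), and every SHR array was above them, SHR 3-3 most of all. The log2 difference was 0.63 ± 0.18 SE (95% interval 0.23 to 1.02, n = 5 per strain), with an unadjusted limma p of 0.00457 and 0.0719 after adjustment. Without SHR 3-3 it was 0.45 (adjusted p = 0.0575), and without SHR 2-1 it was 0.72 and passed (0.0457). It also depended on the scaling, being 0.16 with the authors' values (0.233), and was 0.22 with the slide as a block. The authors' values of Pip were tied between arrays. They stood at 17.07 in both SHR 3-1 and SHR 3-4, and at 16.88 in WKY 1-3, 1-5 and 4-1. Tied values resolve its level poorly, so the 0.16 is not an independent measure of the size of the difference. The probe was bright, at 113019 to 165889 intensity units in SHR and 80066 to 128657 in WKY, and 0 of its spots were saturated.

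The sums of acinar markers, which weigh bright genes most, were higher in most SHR arrays as well. The summed level of 7 of 8 submandibular acinus markers was 388 to 682 in SHR and 339 to 391 in WKY, highest in SHR 3-3, and 1 of the 7 was called higher and 2 lower (median log2 difference 0.23). That of 5 of 7 parotid acinus markers was 269 to 456 in SHR and 219 to 262 in WKY, with 0 higher and 2 lower. The parotid list includes Amy1, Bpifa2 and Car6, and its median log2 difference was −0.42, the opposite direction to its sum. Car6 averaged 8.41 in SHR and 7.87 in WKY in scaled log2 signal, so the parotid sum is mostly that of Car6. The log2 difference of Car6 was 0.54 (adjusted p = 0.0808). The part of these markers in the values of Pip was not tested. Sval2, the next gene on the chromosome and a relative of Pip, had a log2 difference of 0.22 (adjusted p = 0.444). Kel, the nearest tested gene on the other side, which encodes the Kell blood group endopeptidase, fell by 1.08 ± 0.26 SE on the log2 scale (adjusted p = 0.0348, n = 5 per strain).

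Odam encodes odontogenic ameloblast-associated protein, a secreted protein of enamel-forming cells and of the epithelium that seals gum to tooth. The signal, on the same scale, was 2.85, 2.97, 2.88, 3.78 and 3.03 in SHR 2-1, 2-3, 3-1, 3-3 and 3-4, against 3.41, 3.60, 3.64, 3.30 and 3.16 in WKY 1-2, 1-3, 1-5, 4-1 and 4-2. On this scale SHR 3-3 was the highest of all 10 arrays, and the other 4 SHR arrays were below all 5 WKY arrays. With the authors' values SHR 3-3 (12.57) was below WKY 1-3 (12.69) and WKY 1-5 (12.59). In unscaled intensity every SHR array (3467 to 5029 units) was below every WKY array (5249 to 7515 units). With every array the log2 difference was −0.32 ± 0.17 SE (95% interval −0.70 to 0.05, adjusted p = 0.312, n = 5 per strain). Without SHR 3-3 it was −0.49 and passed the limma test (adjusted p = 0.0244). SHR 3-3 thus had a high scaled signal for both Odam and Pip, 0.85 and 0.86 higher than the other 4 SHR arrays on average. Its unscaled intensities were not the highest in SHR, at 4571 units for Odam (5029 in SHR 2-3) and 164237 for Pip (165889 in SHR 3-1). On the authors' scale SHR 3-3 stood at 12.57 for Odam, against 11.90 to 12.04 in the other SHR arrays. For Pip it stood at 17.20, against 16.83 to 17.07.

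Amy1 encodes the salivary alpha-amylase, which digests starch. It stood at −2.05, −1.85, −1.16, −1.97 and −1.95 in SHR 2-1, 2-3, 3-1, 3-3 and 3-4, against −0.78, −1.76, −1.38, −1.32 and −1.63 in WKY 1-2, 1-3, 1-5, 4-1 and 4-2. All SHR arrays but SHR 3-1 were below all WKY arrays. Unscaled intensities were 85.2 to 289 units in SHR and 128 to 292 in WKY. The log2 difference was −0.42 ± 0.20 SE (95% interval −0.86 to 0.01, limma adjusted p = 0.259, n = 5 per strain). It was −0.58 without SHR 3-1 (adjusted p = 0.0875), and it kept its direction without any 1 array, at −0.28 at its smallest. The pancreatic amylase gene Amy2a3, close by on the chromosome, had a log2 difference of −0.15 (adjusted p = 0.282), and Rnpc3 on the other side had one of 0.08 (0.776).

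Dnase1 encodes the main secreted deoxyribonuclease of body fluids. Its signal ran from −2.62 to −2.08 (median −2.16) in SHR and from −2.21 to −1.59 (median −2.06) in WKY. The log2 difference was −0.25 ± 0.13 SE (95% interval −0.54 to 0.05, limma adjusted p = 0.329, n = 5 per strain), and it was 0.0054 with the slide as a block. SHR 3-1 was the lowest array and WKY 1-2 the highest. Dmbt1 encodes the salivary agglutinin, a scavenger receptor cysteine-rich protein that binds streptococci. It averaged −1.33 ± 0.27 in SHR and −1.42 ± 0.13 in WKY (SD, n = 5 each), a difference of 0.09 ± 0.13 SE (95% interval −0.19 to 0.37, limma adjusted p = 0.742). Both probes were below the 75th percentile in every array. Intensities of Dnase1 were 75.2 to 140 units in SHR and 98.6 to 167 in WKY. Those of Dmbt1 were 146 to 231 and 139 to 245.

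Agr2 and Bpifa2f differed far more between rats of a strain than between the strains. Agr2 encodes a disulfide isomerase of the endoplasmic reticulum that mucin-producing cells of the mouse intestine need to fold mucins. Bpifa2f, also called Smgb, encodes a secreted protein of the BPI fold family first known from the perinatal rat submandibular gland. Bpifa2 encodes parotid secretory protein, a family member known in humans to bind bacteria and their lipopolysaccharide.

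The processed intensity of Agr2 was 226, 78.5, 891, 49.0 and 67.9 units in SHR 2-1, 2-3, 3-1, 3-3 and 3-4, against 70.0, 59.9, 87.6, 89.2 and 2000 units in WKY 1-2, 1-3, 1-5, 4-1 and 4-2. WKY 4-2, SHR 3-1 and SHR 2-1 were thus high, and the other 7 arrays of both strains were low and close together. The scaled log2 signal of the probe was 0.46 in SHR 3-1 and −1.09 in SHR 2-1, against −2.94 to −2.72 in the other 3 SHR arrays. It was 1.75 in WKY 4-2, against −2.89 to −2.72 in the other 4 WKY arrays. After outlier spots were left out, 6 to 10 of the 10 spots of this probe remained in an array. They spread by an SD of 0.05 to 0.28 log2 units, far less than the SD of 1.48 among SHR and 2.03 among WKY arrays. In SHR 2-3, where 7 were kept, all 10 spots ran from 26.7 to 104 units. The log2 difference between strains was 0.07 ± 0.91 SE (95% interval −1.92 to 2.05, limma adjusted p = 0.978, n = 5 per strain). It ran from −0.50 without SHR 3-1 to 0.97 without WKY 4-2, so its direction rests on single arrays. It was 0.31 without SHR 3-3.

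Bpifa2f followed the same arrays. Its scaled log2 signal was 4.62, 3.67, 6.21, 2.23 and 2.95 in SHR 2-1, 2-3, 3-1, 3-3 and 3-4, against 3.51, 3.50, 3.05, 3.78 and 6.58 in WKY 1-2, 1-3, 1-5, 4-1 and 4-2. WKY 4-2 was 8.68 times the geometric mean of the other WKY arrays, and SHR 3-1 was 7.16 times that of the other SHR arrays. The log2 difference was −0.15 ± 0.76 SE (95% interval −1.81 to 1.52, limma adjusted p = 0.938, n = 5 per strain), and 0.28 without SHR 3-3. Bpifa2 also spread widely, at 0.18, −0.51, −0.22, −1.45 and −1.49 in SHR 2-1, 2-3, 3-1, 3-3 and 3-4, against −0.78, −1.12, −1.45, 0.86 and −0.17 in WKY 1-2, 1-3, 1-5, 4-1 and 4-2. Its highest array was WKY 4-1, in which Bpifa2f was 3.78. The log2 difference of Bpifa2 was −0.17 ± 0.43 SE (95% interval −1.10 to 0.77, limma adjusted p = 0.868), and 0.02 without SHR 3-3. By the SD within strains, Agr2 (1.77), Bpifa2f (1.48) and Bpifa2 (0.83) ranked at 5, 11 and 77 of the 14711 genes, whereas that of Azgp1 was 0.30 and that of Pip 0.33.

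**Figure D3:**
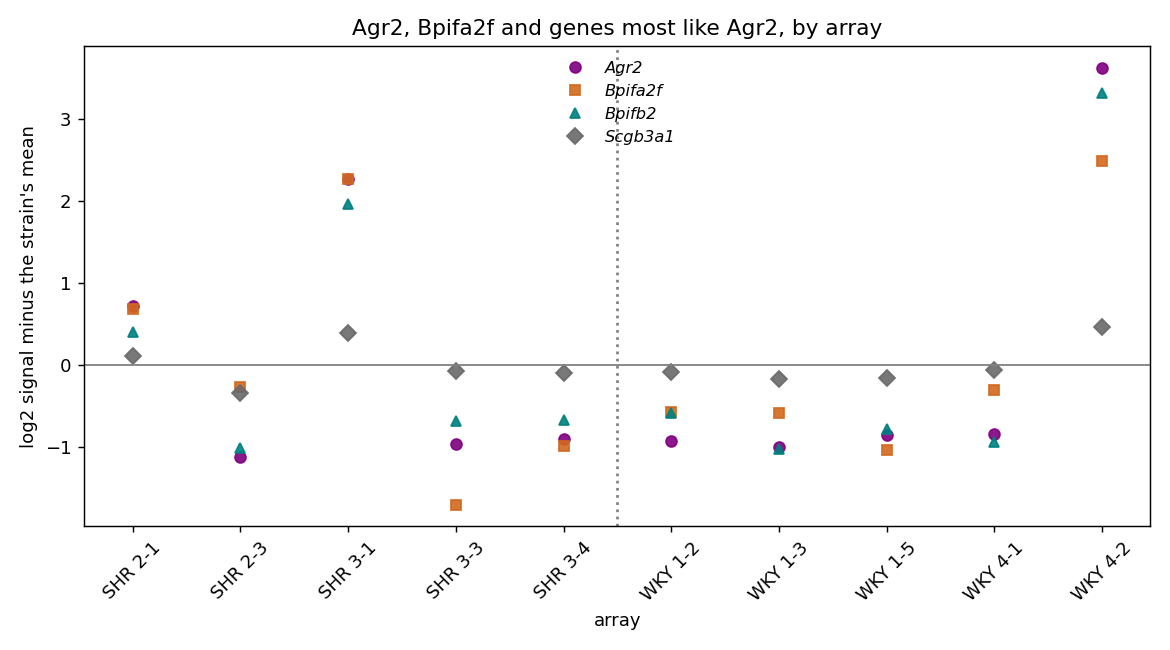
Log2 signal minus the mean of the rat's own strain (vertical axis, log2 units) for Agr2, Bpifa2f and the 2 genes most like Agr2, in 5 SHR arrays (left) and 5 WKY arrays (right). Each point is 1 array. In SHR 3-1 and WKY 4-2 all 4 genes lie above 0, Agr2 at 2.27 and 3.63 but Scgb3a1 only at 0.39 and 0.47.

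The tested gene whose values minus the strain mean were most like those of Agr2 was Bpifb2, another gene of the BPI fold family, with a Pearson r of 0.99 and a Spearman rho of 0.78 over the 10 arrays. It reached 1689 units in SHR 3-1 and 3566 units in WKY 4-2, against 138 to 423 in the other SHR and 127 to 212 in the other WKY arrays. The second was Scgb3a1, a secretoglobin secreted by airway epithelium (r 0.95, rho 0.88), with 188 units in SHR 3-1 and 168 in WKY 4-2. Both correlations were lower without the 3 arrays high in Agr2. Over the other 7 arrays r was 0.44 for Bpifb2 and 0.81 for Scgb3a1. For Bpifa2f the closest genes were Metrn, a secreted neurotrophic factor gene (r 0.97, rho 0.94), and Tsen15, a subunit of the tRNA splicing endonuclease (r 0.97, rho 0.92). Over the 7 arrays these r values were 0.95 and 0.81. Metrn and Tsen15 varied little, with an SD within strains of 0.20 and 0.16, against 1.48 for Bpifa2f. Metrn stood at 44.8 to 128 units. Array-wide properties such as signal strength are shared by all points of such a correlation.

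The spread was not general to the BPI fold family. Of 14 tested members, Bpifb2, Bpifa2f and Bpifa2 had an SD within strains of 1.57, 1.48 and 0.83, and the other 11 had one of 0.08 to 0.55. Bpifb3 (0.19), Bpifb6 (0.22) and Bpifa1 (0.22), all on chromosome 3 like Bpifb2, Bpifa2 and Bpifa2f, were among these 11, and Bpifa3 (0.35) and Bpifa5 (0.55), also there, had a wider spread than they. In gene order of the RefSeq table Bpifa2 and Bpifa2f are next to each other, with 6 genes between Bpifa2f and Bpifb2. Agr3, the next gene to Agr2 on chromosome 6 and its closest relative, had an SD of 0.34 and was 1.86 times its level in the other WKY arrays in WKY 4-2, but 1.17 times that of the other SHR arrays in SHR 3-1. Over the 10 arrays its r with Agr2 was 0.90. Tspan13 on the other side of Agr2 had a log2 difference of −0.11 between strains (adjusted p = 0.715).

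Markers of neighbouring tissues were examined in the same arrays. Of 5 sublingual mucous markers 2 were tested, Tff2 and Cst5, at 28.1 to 84.8 units in all 10 arrays, and their summed level was 0.164 to 0.236 in SHR and 0.211 to 0.265 in WKY. It was 0.164 in SHR 3-1 and 0.211 in WKY 4-2. The pancreas marker Prss1 was similarly dim, at 25.9 to 63.3 units, so the sum of Tff2 and Cst5 cannot show whether mucous tissue was present. The defining mucous marker Muc19 was not measured under that name. Adipoq, which marks fat cells, was high in these 3 arrays and also in WKY 4-1, at 164 units in SHR 2-1 and 281 in SHR 3-1 against 25.7 to 76.5 in the other SHR arrays, and at 420 in WKY 4-2 and 280 in WKY 4-1 against 54.6 to 85.8 in the other WKY arrays. The summed level of 3 of 4 adipocyte markers was 8.32 to 16.1 in SHR, lowest in SHR 3-1, and 13.6 to 16.2 in WKY. The part of fat or of a neighbouring gland in the spread of Agr2 and Bpifa2f was not tested.

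Bpifa2f, Bpifa2 and Agr2 are the members that varied most among rats of a strain, and their promoter windows (RefSeq, GRCr8, plus strand, 250 bases before to 50 bases after the start) are printed. They lie at chr3:162981164-162981463 for Bpifa2f, chr3:162953288-162953587 for Bpifa2 and chr6:58435658-58435957 for Agr2. Capitals mark the longest run shared by Bpifa2f and Bpifa2, 51 bases that reach the end of the Bpifa2 window. It begins at base 250 of the Bpifa2 window, so nearly all of it lies after the annotated transcript start. In Bpifa2f it begins at base 221 and spans the annotated start.
Bpifa2f: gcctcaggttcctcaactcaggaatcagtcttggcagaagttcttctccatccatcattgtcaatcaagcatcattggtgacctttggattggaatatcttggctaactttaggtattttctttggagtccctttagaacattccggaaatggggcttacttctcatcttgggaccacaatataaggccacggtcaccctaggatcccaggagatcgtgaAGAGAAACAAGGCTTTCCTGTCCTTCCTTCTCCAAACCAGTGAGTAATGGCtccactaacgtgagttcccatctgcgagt
Bpifa2: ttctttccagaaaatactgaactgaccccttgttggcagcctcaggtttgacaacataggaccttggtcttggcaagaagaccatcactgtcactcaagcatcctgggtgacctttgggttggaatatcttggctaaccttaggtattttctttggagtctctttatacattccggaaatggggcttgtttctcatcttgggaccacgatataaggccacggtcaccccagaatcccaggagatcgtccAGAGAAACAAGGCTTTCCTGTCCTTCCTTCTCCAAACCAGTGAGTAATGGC
Agr2: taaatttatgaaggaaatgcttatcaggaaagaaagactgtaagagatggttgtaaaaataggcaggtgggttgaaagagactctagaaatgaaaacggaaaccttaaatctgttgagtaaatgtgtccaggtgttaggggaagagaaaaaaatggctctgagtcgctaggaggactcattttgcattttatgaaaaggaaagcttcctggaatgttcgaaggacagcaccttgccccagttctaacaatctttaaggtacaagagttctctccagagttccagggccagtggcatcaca
The windows of Bpifa2f and Bpifa2 are 90.8% identical over 260 aligned bases. The 27 other pairs among the 8 members with a window shared no run longer than 10 bases. Matches to TATAA on either strand occur in both Bpifa2 windows and in 5 of the 8, but not in that of Agr2. No window was listed for Dmbt1. The probe sequences were not used here, so cross-hybridisation between Bpifa2 and Bpifa2f was not tested.

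Within strains the 9 genes did not vary as 1 block. Agr2 and Bpifa2f had a Pearson r of 0.94 over the 10 arrays with strain means removed, and r was −0.22 over the 7 arrays without SHR 2-1, SHR 3-1 and WKY 4-2. Bpifa2 and Bpifa2f had an r of 0.57, and it was 0.68 over those 7 arrays. For Bpifa2 and Agr2 r was 0.40, and 0.09 over the 7. Pip and Odam had an r of 0.82, which was 0.50 without SHR 3-3. Azgp1 ran against Bpifa2 (−0.76, and −0.71 over the 7 arrays) and Bpifa2f (−0.72, and −0.50), and Odam against Bpifa2f (−0.73, and −0.87). Over the 10 arrays Amy1 had no r above 0.40 in size with any of the others. These values describe 10 arrays that differ in signal strength.

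**Figure D4:**
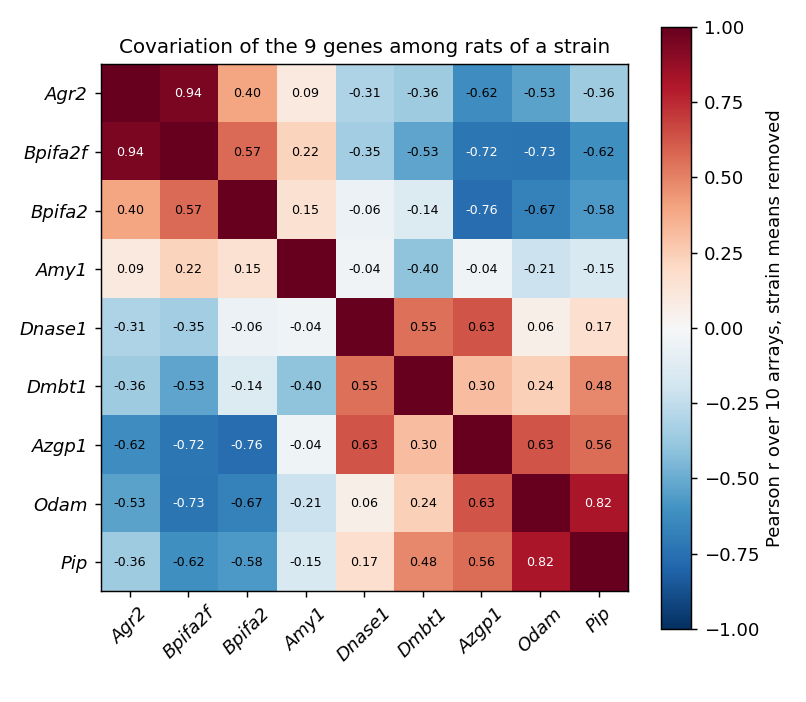
Pearson r between the 9 genes over 10 arrays after the strain mean was removed from each value (colour and printed number, red positive, blue negative). Agr2 and Bpifa2f reach 0.94 and Pip and Odam 0.82, while Bpifa2 and Azgp1 stand at −0.76.

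Genes of the families and routes to which the 9 belong were examined in 9 lists. Of 159 listed genes 135 were tested, 7 of them members (Pip and Azgp1 are in no list). Past the threshold 4 genes were higher in SHR and 3 lower, none of them a member, and 128 were not past it. This share is close to the 4.36% called over all genes. The median over all 135 was −0.03. In the fit with a slide block 0 of these 135 passed limma's test. In the deoxyribonuclease list (5 tested, 1 lower, median 0.13), Dnase2b, an acid deoxyribonuclease best known from the eye lens, was 2.99-fold lower. Its scaled log2 signal was −2.09 to −0.15 in SHR and 0.20 to 1.51 in WKY, without overlap, a log2 difference of −1.58 ± 0.34 SE (limma adjusted p = 0.0206, n = 5 per strain). Without WKY 1-3 its adjusted p was 0.0521.

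In the BPI fold family (14 tested, 1 lower, median −0.13) Bpifa3 fell by 0.88 ± 0.19 SE on the log2 scale (limma adjusted p = 0.0233, n = 5 per strain), and with the slide as a block by 0.17. Its call was lost without SHR 2-3, WKY 1-2 or WKY 1-3 (adjusted p up to 0.0685). In the disulfide isomerase family (20 tested, 1 lower, median 0.07) the transmembrane thioredoxin-like protein gene Tmx4 fell by 0.54 ± 0.12, a call lost without SHR 3-1, WKY 1-2 or WKY 1-3 (adjusted p up to 0.0609). The group B scavenger receptor list (7 tested, median −0.03) and the digestive enzymes (17 tested, median −0.15) had 0 calls in limma, with 0 and 5 at an unadjusted p below 0.05, where 20.3% of all genes were counted. Cd163 stood at −0.26 and Cd5l at −0.25, and Amy1 and the lipase gene Pnlip at −0.42 and 0.42.

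The secretory calcium-binding phosphoprotein cluster, to which Odam belongs (13 tested, median −0.13), had 1 call. Oprpn, which encodes the precursor of opiorphin-like peptides, rose by 0.61 ± 0.15 SE (limma adjusted p = 0.0434, n = 5 per strain). As for Pip, the difference was smaller with the authors' values (0.16, adjusted p = 0.178) but not with median scaling (0.64, 0.0302). The call of Oprpn was lost without SHR 2-1, SHR 2-3, SHR 3-4 or any 1 WKY array (adjusted p up to 0.106). Among other serous and defence proteins (23 tested, median −0.05) 2 rose, Clu, the extracellular chaperone clusterin, by 1.21 ± 0.17 and Pigr, the receptor that carries IgA into saliva, by 0.39 ± 0.10 (adjusted p = 0.00113 and 0.0472). The call of Clu held without any 1 array, and that of Pigr was lost in 9 of the 10 cases. Of the exocytosis genes (21 tested, median −0.03), Stx3, an apical membrane SNARE, rose by 0.54 ± 0.08 (adjusted p = 0.00334). None of 15 acinar transcription factors passed limma's test (median 0.12, 5 at an unadjusted p below 0.05, beside the same 20.3%), with Elf3 at −0.63 (adjusted p = 0.160) and Tfcp2l1 at −0.48 (0.536), and the value of Tfcp2l1 in SHR 3-3 minus the average of the remaining 4 SHR arrays was −2.38. Without SHR 3-3 the difference was −0.01 for Tfcp2l1 and −0.40 for Elf3.

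**Figure D5:**
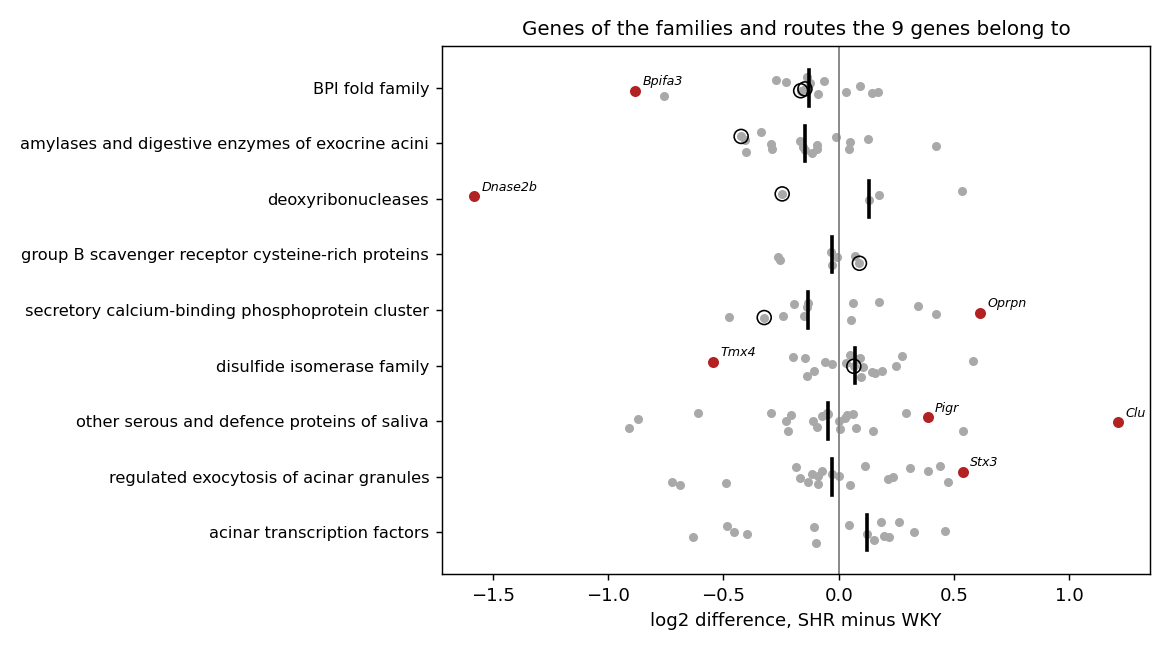
Log2 difference, SHR minus WKY (horizontal axis), of the tested genes in each of 9 lists (rows). Each point is 1 gene, red where the adjusted p was below 0.05, ringed where it is 1 of the 9 genes, and the black bar is the list median. Dnase2b at −1.58 and Clu at 1.21 lie farthest from 0, and all medians lie between −0.15 and 0.13.

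Of the 48 other genes that are the 3 nearest tested genes on each side of a member, 3 were higher and 2 lower past the threshold, where 1.51% and 2.85% of all genes were. Besides Kel and Bpifa3 these were Zfp597 (0.85 ± 0.11 SE, limma adjusted p = 9.12e-04) and Cluap1 (0.35 ± 0.08, 0.0233) near Dnase1, and S1pr1 (0.56 ± 0.14, 0.0460), a sphingosine-1-phosphate receptor gene, near Amy1 (n = 5 per strain). Trap1, next to Dnase1 on the other side, had a log2 difference of 0.34 (adjusted p = 0.0677). Fdcsp and Dzip1-ps1, on either side of Odam, stood at −0.13 and 0.12, and Htra1 and Fam24a, on either side of Dmbt1, at −0.06 and −0.47 (adjusted p = 0.0588 for Fam24a).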

How the data were processed

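Per the file headers, the arrays were read with Agilent Feature Extraction, and the deposited processed signal is a background-subtracted intensity on a linear scale. The authors' deposited value table holds log2 values whose columns all share their median and their upper quartile. How the authors made it is not stated in the labels or headers. Each processed intensity was put on the log2 scale and reduced by the 75th percentile over all non-control spots of its array. Spots marked as outliers were left out, and spots of a probe were averaged. A probe was kept if it lay well above background in 5 or more of the 10 arrays (29266 of 30367), and the brightest kept probe stood for its gene. Gene names came from RefSeq accessions (GRCr8). All 9 members were kept and passed this filter on all 10 arrays.

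The strains were compared by limma (lmFit, eBayes, no covariates, two-sided), with Benjamini-Hochberg adjustment over 14711 genes and a threshold of 0.05. The members, gene lists, neighbour and naming rules were chosen with earlier results of these data known. Named are the 9 members, the largest calls per list (or 2 values where none passed), nearest and called neighbours, and the 2 genes most like each member. Slides were inferred from scan times in the headers. No SHR and WKY array share a full title number. Replicates are separate rats per the design text. Correlations are descriptions with no test. Other normalisations, filters, probe rules, variance models, array weights, slide and title-number blocks and leaving out each array were tried as alternatives. Python 3.11.15 (Biopython 1.88, matplotlib 3.10.9) and R 4.3.3 (limma 3.58.1) were used.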

Additional observations from a re-analysis of the deposited data

Results flagged for a closer look

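In each group of 5 arrays, single arrays stood far from the other 4 by Dixon's criterion, which flags about 1 in 20 groups by chance. Among 56 genes in 112 groups 21 such values were found, 5 of them in the 9 members. Part of the 56 genes were chosen because their values run with those of a member, so they share its outlying arrays, and the count cannot be set against the chance rate. Values are scaled log2 signals, with the range of the other 4 arrays after each.

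Among the members, Agr2 was 1.75 in WKY 4-2 (others −2.89 to −2.72) and Bpifa2f was 6.58 in the same array (3.05 to 3.78). Amy1 was −1.16 (−2.05 to −1.85) and Dnase1 −2.62 (−2.20 to −2.08) in SHR 3-1, and Odam was 3.78 in SHR 3-3 (2.85 to 3.03). In WKY 4-2 the genes Bpifb2 at 2.59 (−1.76 to −1.31), Scgb3a1 at −1.82 (−2.46 to −2.35), Tsen15 at −1.15 (−1.54 to −1.44) and Tfcp2l1 at 4.24 (4.66 to 4.75) also stood apart.

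In SHR 3-3 the values were −1.02 for Elf3 (others −0.06 to 0.25), 2.22 for Tfcp2l1 (4.44 to 4.89), 0.89 for Rnpc3 (0.14 to 0.32), −2.23 for S1pr1 (−1.75 to −1.58), −1.88 for Htra1 (−1.53 to −1.43), 3.70 for Tecpr1 (2.78 to 2.99) and 1.60 for Trappc2l (0.97 to 1.15). In single other arrays they were −1.83 for Cd5l in WKY 1-3 (−1.48 to −1.36), 1.15 for Elf3 in WKY 4-1 (0.28 to 0.46), −3.74 for Dzip1-ps1 in WKY 1-2 (−4.59 to −4.39), −3.36 for Mfap2 in SHR 3-1 (−3.22 to −3.17) and −2.39 for Scn4a in WKY 1-3 (−2.17 to −2.09). What set these arrays apart was not tested.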

How the results depend on the processing

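Azgp1 was lower in SHR under every alternative run, with log2 differences of −1.51 to −1.32, and lost its call with the slide as a block. The number of members called was 0 with the slide as a block, 2 with array weights or with slides or title numbers as random blocks, and 1 to 2 when 1 array was left out. The second was Pip, or Odam without SHR 3-3. The count over all genes, 641, was 1123 with every probe, 44 with the slide as a block, 52 on slide 2 alone, 3451 with the slide and 1779 with the title number as a random block, and 343 to 724 without 1 array. Both random blocks had a negative estimated correlation (−0.19 and −0.16). The count in the related lists, 7, was 0 with the slide as a block, 1 on slide 2 alone, 33 and 18 with the random blocks and 2 to 10 without 1 array. With the slide as a block and on slide 2 alone, where the difference rests on SHR 2-1 and its spread is assumed from the other arrays, the uncalled differences turned to 0.43 for Bpifa2, 0.15 for Bpifa2f and 0.0054 for Dnase1, and with the slide as a random block that of Agr2 turned to −0.25. Without 1 array Agr2 ran from −0.50 to 0.97, Bpifa2 from −0.39 to 0.18 and Bpifa2f from −0.71 to 0.48. No paired analysis was possible because no SHR and WKY array share a full title number (such as 2-1), and the second number alone recurs within a strain. The cause of these changes was not tested. With 5 arrays per strain, the 95% intervals of Agr2 and Bpifa2f span more than 3 log2 units, so a modest strain difference in these genes was not detectable.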

Other observations

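For the members not described by their closest genes above, the tested genes with the most alike values among rats of a strain were as follows, as Pearson r over 10 arrays with strain means removed. For Pip they were Tekt1 (0.99) and Rps4y2 (0.99), for Odam Tecpr1 (0.99) and Trappc2l (0.97), for Dmbt1 Hlx (0.97) and Scn4a (0.97), for Dnase1 Rassf8 (0.97) and Mfap2 (0.96), for Azgp1 Ube3d (0.97) and Ift56 (0.96), for Bpifa2 Mcoln3 (0.93) and Nat8l (0.91), and for Amy1 Adipor2 (0.91) and Milr1 (0.90). Those of Amy1 fell to 0.33 and 0.54 without SHR 3-1 and WKY 1-2. They are the highest over all other tested genes, and no test was made. Each value has the array's 75th percentile subtracted, so array-wide signal strength enters both genes of a pair. Tekt1 averaged −5.12 in SHR and −4.54 in WKY in scaled log2 signal. The lowest probe well above background stood at −5.42 to −4.79, depending on the array. In SHR 3-3, the array with the lowest percentile, Tekt1 and Pip were 0.89 and 0.86 above the mean of the other SHR arrays.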
